A study of Daphnia magna with 15 samples.

Results

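The genes described here are the lipases and the enzymes of glycerolipid metabolism of the water flea *Daphnia magna*. A gene was taken as a member when its product name in the authors' annotation contained lipase, glycerol-3-phosphate acyltransferase, diacylglycerol, monoacylglycerol, lysophosphatid or phosphatidate, unless the name contained phospholipase A2. The rule found 95 of the 26646 genes in the files. By words in their names, 39 of them were grouped as secreted and digestive lipases, 19 as phospholipases, 8 as lipases of intracellular glycerides and 8 as acyltransferases. A further 10 were diacylglycerol kinases, 5 were phosphatidate phosphatases or CDP-diacylglycerol synthases, 2 act on or bind lysophospholipids, and 4 fitted none of these groups. A few names meet the rule without naming a lipase, among them a phospholipase A-2-activating protein (KZS12976.1), lipase maturation factor 2 (KZS12032.1) and an unc-13-like protein that binds diacylglycerol (KZS12950.1). KZS15886.1, a putative phospholipase A(2), also stayed in because of its brackets.

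Dietary triacylglycerols are cleaved in the gut by secreted lipases, and the fatty acids and monoacylglycerols that are released enter the gut cells. There, and in storage tissue, new glycerolipids are built on glycerol-3-phosphate: acyltransferases add fatty acids in turn to give lysophosphatidate and phosphatidate, from which phosphatidate phosphatases (lipins) make diacylglycerol, the precursor of storage fat and of the main membrane phospholipids. Along another branch phosphatidate is activated to CDP-diacylglycerol, the precursor of phosphatidylinositol and phosphatidylglycerol. Phospholipases C and D and diacylglycerol kinases produce and remove lipid messengers at membranes, and intracellular lipases release stored fat. In *Daphnia*, fat stores are carried over into the eggs.

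The study asked how the supply of eicosapentaenoic acid (EPA), a long-chain polyunsaturated fatty acid, alters gene expression in *D. magna* on foods of different quality. Mothers carrying their first clutch were sampled as whole animals at 15 °C, and RNA-seq was run on 3 pools for each of 5 diets. The GA animals ate the green alga *Acutodesmus obliquus* and the CY animals the cyanobacterium *Synechococcus elongatus*, both without EPA; GA+EPA and CY+EPA are the same foods with EPA supplied in liposomes. The CRY animals ate *Cryptomonas*, an alga that holds EPA by nature. All animals were of 1 clone, P132.85, and reproduced parthenogenetically. According to the methods the cyanobacterial diets were further supplied with cholesterol and alpha-linolenic acid (ALA, spelled alpha linoleic acid there). Comparisons of CY or CY+EPA with another food thus do not isolate the basal food. The labels name the *A. obliquus* diet without EPA as GA and mention no liposomes for it, but by the methods animals given food alone were left out of sequencing, in favour of green algal animals given empty control liposomes (GA + C in the paper). The source label gives 3 animals a pool and the protocol 5. Replicates are pools, and p-values judge differences between diets against the spread between pools of 1 clone.

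The expected counts of a library, the authors' estimates of read pairs per gene, summed to between 18062681 and 22287959. Levels are given below as CPM, counts scaled to a common library size, as mean ± SD of n = 3 pools, and as FPKM where genes are compared with each other, since FPKM also accounts for gene length. All marker lists for tissues were detected in every diet. The summed level of 36 trypsin and chymotrypsin genes, used here as a marker of the gut, was 13541 to 14664 CPM in GA and 11704 to 13432 CPM in CRY. It was 7429 to 12676 CPM in CY and 4211 to 10014 CPM in CY+EPA. In GA+EPA it ranged from 5938 CPM in replicate 1 to 18019 CPM, so that replicate 1 stood apart from the other pools of that diet. The 18 genes named after vitellogenin, the yolk protein, summed to 9116 to 14635 CPM in GA and 24228 to 46450 CPM in GA+EPA. Their sums were 68212 to 148383 CPM in CY, 76597 to 96683 CPM in CY+EPA and 79010 to 110459 CPM in CRY. The 32 opsin genes of the eye were at 1922 to 2129 CPM in GA, 842 to 1316 CPM in CY and 857 to 914 CPM in CRY. Every gene of these 3 lists had counts. These lists move with the comparisons between foods reported below, and their part in those results was not tested. In libraries of whole animals, fewer cells of a type and less RNA per cell cannot be told apart.

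The members were spread over 54 scaffolds of the *D. magna* reference v2.4, and 17 scaffolds held more than 1 of them. In 8 places members lay next to each other with no other gene between, and these runs held 20 members. The scaffold LRGB01003123.1 alone held 10 of the 14 genes named pancreatic lipase-related. Of all members 49 (51.6%) were in artNOG category I, lipid transport and metabolism, which held 425 genes (1.59%) of the whole annotation. For 8 members the read counts were not whole in at least 1 library, which shows that reads were divided between genes: KZS16868.1, KZS07573.1, KZS10668.1 and KZS04514.1 in all 15 libraries, KZS12870.1 in 10, KZS12950.1 in 6, KZS17368.1 in 4 and KZS09961.1 in 2.

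Members were ranked by their mean FPKM over the 15 libraries. Lysophosphatidic acid phosphatase type 6 (KZS10148.1), which removes the phosphate from lysophosphatidate, had the highest mean with 132 ± 13.9 FPKM (SD over 15 libraries). It was followed by a phospholipase B 2-like protein (KZS16891.1) with 128 ± 23.2 FPKM and glycerol-3-phosphate acyltransferase 3 (KZS11164.1) with 107 ± 17.1 FPKM, and the ranges of mean ± SD of these 3 overlapped. The 8 acyltransferases had a median of 21.7 FPKM. The 8 lipases of intracellular glycerides had a median of 13.0 FPKM and the 5 phosphatidate enzymes a median of 11.2 FPKM. The medians were 9.98 FPKM for the 19 phospholipases, 2.72 FPKM for the 10 diacylglycerol kinases and 1.73 FPKM for the 39 secreted lipases. The secreted lipases thus included many genes of low level, and only their leading member, KZS04512.1, reached 57.7 ± 60.5 FPKM. In GA alone KZS04512.1 had the highest mean of all members, with 142 ± 23.7 FPKM, above KZS10148.1 with 123 ± 2.02 FPKM and KZS16891.1 with 113 ± 14.3 FPKM. One member, the lipase 3 KZR99600.1, had no count in any library, and 8 members in all were too low to be fitted over the 5 diets.

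The summed level of all members was nearly level across diets, between 2691 and 3048 CPM per library. The roles behind this sum differed more. The secreted lipases summed to 528 ± 43.5 CPM in GA, 396 ± 179 CPM in GA+EPA, 391 ± 76.1 CPM in CY, 307 ± 100.1 CPM in CY+EPA and 542 ± 21.8 CPM in CRY. The acyltransferases summed to 539.6 ± 19.8 CPM in GA, 594 ± 18.9 CPM in GA+EPA, 647 ± 55.6 CPM in CY, 656 ± 14.2 CPM in CY+EPA and 584 ± 29.5 CPM in CRY.

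**Figure D1:**
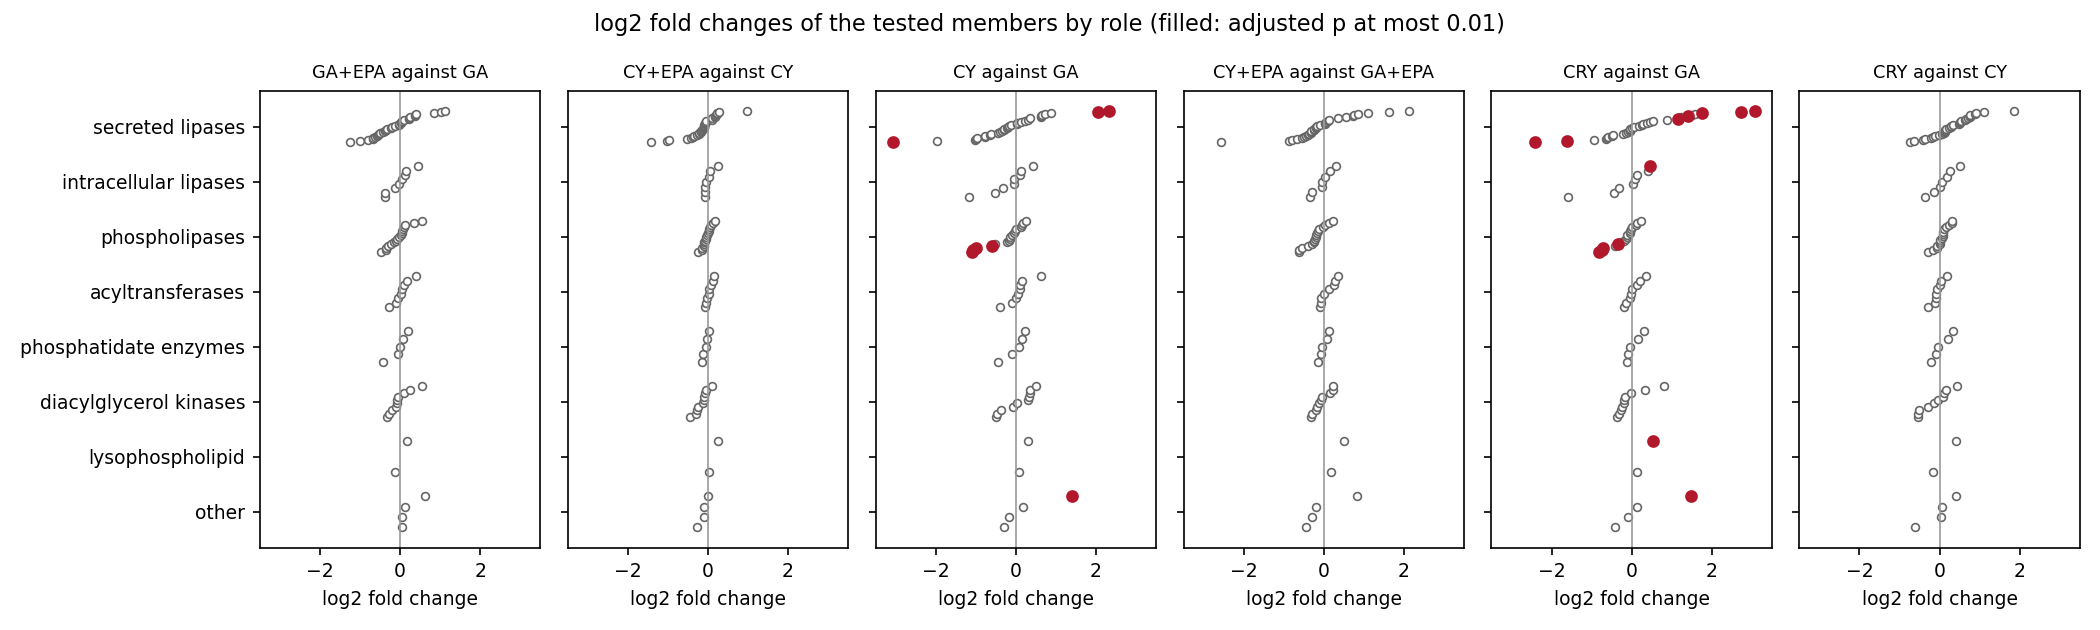
Each point is the log2 fold change (x axis) of 1 tested member, placed by role (y axis), in 6 pairwise comparisons of 3 against 3 libraries, and filled points passed an adjusted p of 0.01 in edgeR. Filled points are seen in CY against GA (9.41% of 85 members, beside 5.99% of all genes) and CRY against GA (16.1% of 87, beside 16.2%). Most were in the 2 roles with the most tested members. These were the secreted lipases (3 of 31 in CY, 7 of 33 in CRY) and the phospholipases (4 of 17 in each). None were among the acyltransferases, phosphatidate enzymes or diacylglycerol kinases.

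The cyanobacterial diet went with a mixed response of lipases. In CY against GA, 2 secreted lipases (KZS04513.1 and KZS07195.1) and a CDP-diacylglycerol transferase (KZS20433.1) rose, whereas the most abundant pancreatic lipase-related gene (KZS04512.1) and 4 phospholipase genes fell. With edgeR's quasi-likelihood test at an adjusted p of at most 0.01, 8 of 85 tested members (9.41%) were called, beside 5.99% of all tested genes. Of these 3 were higher in CY (3.53%), beside 1.27% of all genes, and 5 were lower (5.88%), beside 4.72% of all genes. The median log2 fold change of the members was -0.06 and that of all tested genes -0.00. By role, none of the 8 acyltransferases, 10 diacylglycerol kinases, 8 intracellular lipases, 5 phosphatidate enzymes or 2 lysophospholipid genes passed the test in edgeR. KZS03406.1, named after a lipase of stored fat, was counted by its name with the phospholipases that fell. DESeq2 at the same threshold also called KZS11164.1, KZS04452.1 and KZS17647.1, whose adjusted p-values in edgeR were 0.0158, 0.0371 and 0.0344. The calls depended on the 3 GA libraries: without GA replicates 1, 2 or 3 the count was 1, 2 and 1. KZS04512.1 was called in each case and KZS10668.1 without GA replicate 2, whereas the other 6 had adjusted p-values of 0.0115 to 0.0474. KZS04607.1 also lost its call without CY replicate 1 or 3, and KZS12870.1 without CY replicate 2 or 3. Without the scaling of library sizes, a setting added after the data had been seen, the median of all genes shifted to -0.16 and the members split into 3 higher and 8 lower. The counts of all genes called in these settings are not given here, so these shifts are not shown to be particular to the members.

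With *Cryptomonas* more members passed the threshold than in CY against GA, as did more of all genes. The spread between pools was also smaller, with a biological coefficient of variation of 0.136 beside 0.199 in CY against GA. In CRY against GA 14 of 87 tested members (16.1%) were called by edgeR, beside 16.2% of all tested genes, so that members were called no more often than other genes. Of these 8 were higher in CRY (9.2%), beside 6.62% of all genes, and 6 were lower (6.9%), beside 9.59%. By role, 5 secreted lipases rose and 2 fell of 33 tested, 4 phospholipases fell of 17, and 1 intracellular lipase, 1 lysophospholipid receptor and 1 CDP-diacylglycerol transferase rose. edgeR called no acyltransferase, phosphatidate enzyme or diacylglycerol kinase. DESeq2 also called KZS11164.1 (an acyltransferase, log2 value 0.37, adjusted p = 0.00104), KZS21050.1, KZS17588.1 and KZS17647.1. The median log2 fold change was -0.03 for the members and -0.00 for all tested genes. The comparisons of CY and CRY with GA share the 3 GA libraries, so that their values are set side by side below and are not independent. The count was 9 without GA replicate 1 and 7 without GA replicate 3. KZS03406.1, KZS04512.1, KZS04513.1, KZS04607.1, KZS07195.1, KZS10668.1 and KZS20433.1 were called without any single library. The other 7 lost their call without at least 1 of the GA or CRY libraries, each of which ended 2 to 7 of these calls, with adjusted p-values of 0.0111 to 0.0397. Without the scaling of library sizes the median of all genes shifted to -0.16 and the members split into 6 higher and 13 lower. Here too the counts of all genes called in these settings are not given, so the shifts are not shown to be particular to the members.

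Among the secreted lipases the largest decrease was that of KZS04512.1, a pancreatic lipase-related protein 2 at 1637765 to 1639213 on the plus strand of LRGB01003123.1. Lipases of this name split acylglycerols and galactolipids in the gut of mammals. Its level was 246, 212 and 295 CPM in GA, 39.8, 23.8 and 27.3 CPM in CY and 42.0, 49.9 and 48.1 CPM in CRY. Every GA pool was thus far above every CY and CRY pool. It fell by 3.08 on the log2 scale in CY against GA (SE 0.23, adjusted p = 0.000761) and by 2.43 in CRY against GA (SE 0.13, adjusted p = 9.8e-06). Over 12 alternative settings, 6 of which left out 1 library, the adjusted p in CY against GA stayed at or below 0.00685, whereas that in CRY against GA reached 0.0168 when all 15 libraries were fitted together.

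The next gene on the same strand changed the other way. KZS04513.1, also named pancreatic lipase-related protein 2, lies at 1639929 to 1641418, with 715 bp between the genes, and no library had divided reads in either gene. It stood at 14.7, 13.8 and 16.2 CPM in GA, 54.2, 91.4 and 43.7 CPM in CY and 112, 83.0 and 99.7 CPM in CRY. No pool of CY or CRY overlapped with a GA pool, and the CY pools differed among themselves by more than the CRY pools. It rose by 2.05 on the log2 scale in CY (SE 0.27, adjusted p = 0.00407) and by 2.72 in CRY (SE 0.12, adjusted p = 3.42e-06). The call in CY was lost in 5 of 12 settings, in which the adjusted p reached 0.0287.

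The third gene of this run, KZS04514.1, which shares reads with other genes, was nearly level with 4.47 ± 0.71 CPM in GA, 4.65 ± 0.553 CPM in CY and 5.07 ± 0.182 CPM in CRY. The scaffold also carries a run of 4 pancreatic lipase-related genes on the minus strand, KZS04449.1 to KZS04452.1, between 1339454 and 1346678. Its first gene, KZS04449.1, rose from 2.93, 2.57 and 2.08 CPM in GA to 6.56, 5.41 and 5.06 CPM in CRY, a log2 fold change of 1.17 (SE 0.19, adjusted p = 0.00256). Its last, KZS04452.1, had log2 values of -0.98 in CY (SE 0.24, adjusted p = 0.0371) and -0.63 in CRY (SE 0.16, adjusted p = 0.0172), which did not pass the threshold in edgeR. DESeq2 called it in CY against GA (log2 value -0.95, adjusted p = 0.00416) and over the 5 diets (adjusted p = 0.000559). Between these lie KZS04450.1, with values of -0.12 and 0.38, and KZS04451.1, with -0.61 and -0.45, and neither tool called either gene in these comparisons.

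**Figure D2:**
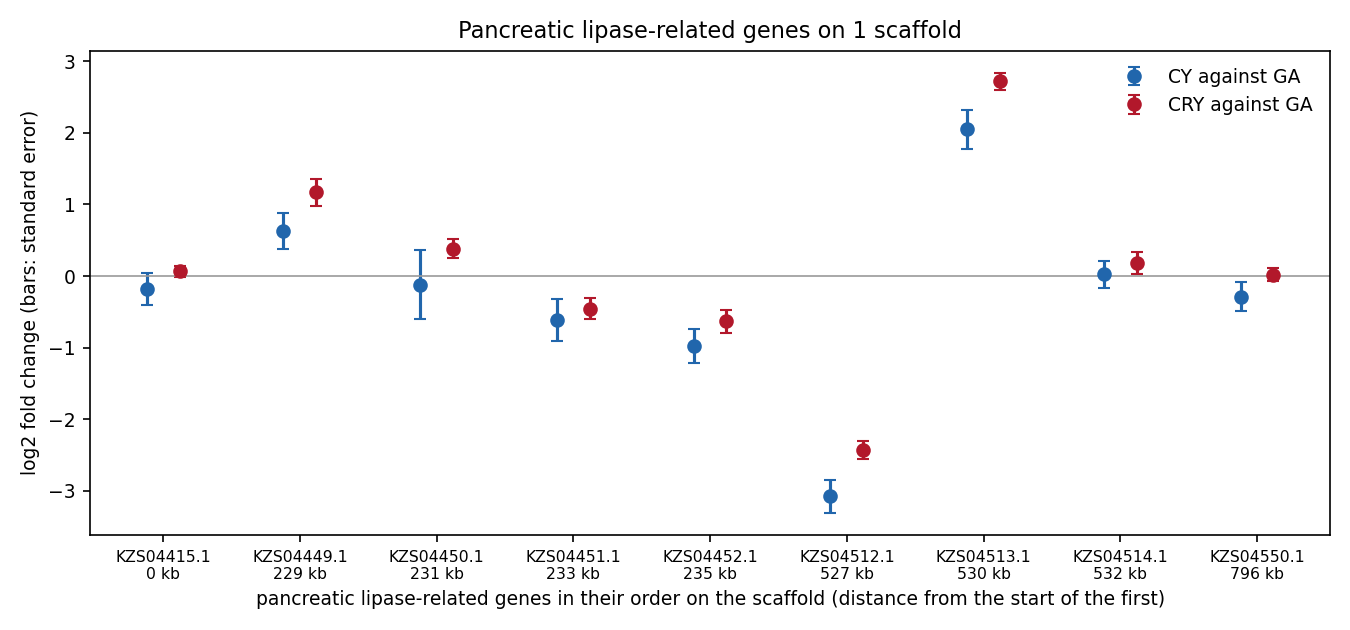
log2 fold changes (y axis, bars show the SE) in CY and CRY against GA for the 9 tested pancreatic lipase-related genes on 1 scaffold, in their order along it (x axis, with the distance from the first in kb). KZS04512.1 and its neighbour KZS04513.1 lie at opposite ends of the axis, at -3.08 and 2.05 in CY and -2.43 and 2.72 in CRY, and the other genes lie between them.

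The other abundant genes of the scaffold did not share these changes. The putative pancreatic lipase-related protein 2 KZS04550.1 was at 63.4, 65.9 and 68.2 CPM in GA, 42.8, 75.5 and 47.0 CPM in CY and 71.6, 57.3 and 70.9 CPM in CRY, and the groups overlapped. Its log2 fold change was -0.29 (SE 0.20) in CY and 0.02 (SE 0.09) in CRY. KZS04415.1, at the start of the group, had values of -0.18 (SE 0.22) and 0.06 (SE 0.08).

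KZS07195.1, a putative triacylglycerol lipase on another scaffold (LRGB01002544.1, 59636 to 62071, minus strand), had the largest increase. It was at 16.9, 12.5 and 13.2 CPM in GA, 84.0, 91.9 and 40.9 CPM in CY and 137, 108 and 117 CPM in CRY. All pools of CY and CRY were above all GA pools. It rose by 2.32 on the log2 scale in CY (SE 0.31, adjusted p = 0.00431) and by 3.09 in CRY (SE 0.13, adjusted p = 3.42e-06). The call in CY was lost in 4 of 12 settings, with an adjusted p of up to 0.031. Between the diets with its highest and lowest mean, CRY and GA+EPA, its level differed 15.0-fold.

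**Figure D3:**
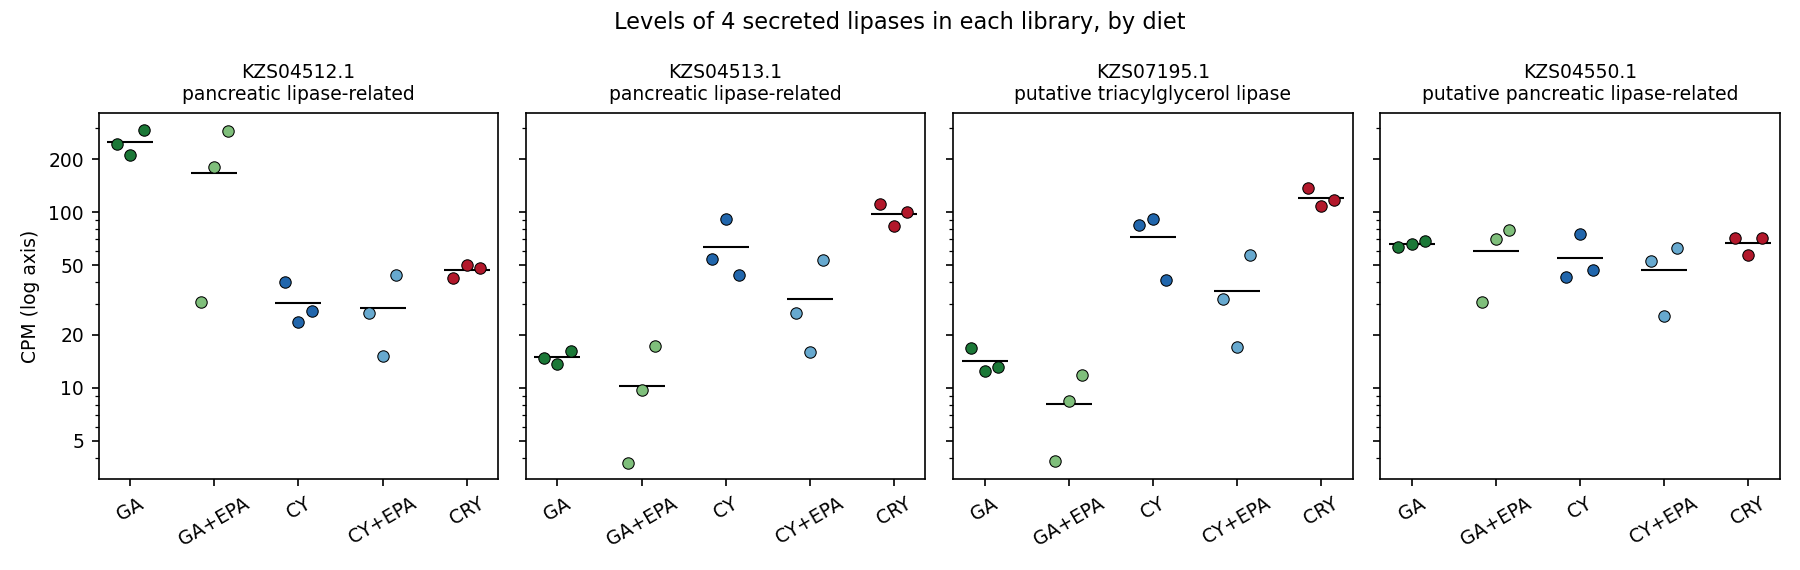
CPM (log axis) of 4 secreted lipases in each of the 15 libraries by diet, where points are libraries and the dash is the mean of 3. KZS04512.1 was above 200 CPM in the GA pools and below 50 CPM in CY and CRY, KZS04513.1 and KZS07195.1 had their lowest means in GA and GA+EPA, and the means of KZS04550.1 lay between 47.0 and 66.6 CPM.

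The within-library ratio of the neighbouring lipases, noticed after their values had been seen, does not depend on the scaling between libraries. KZS04512.1 was 10.9 to 12.8 times as high as KZS04513.1 in FPKM in GA and 5.78 to 13.2 times in GA+EPA. The ratio was 0.184 to 0.520 in CY, 0.585 to 0.706 in CY+EPA and 0.266 to 0.425 in CRY. The algal GA diets, with and without EPA, thus lay entirely above the other 3 diets. KZS07195.1 and KZS04513.1, in contrast, kept a ratio of 0.337 to 0.766 in all 15 libraries.

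The level of gut enzymes differed between pools, and the lipases can be set against it. These enzymes are proteases that may respond to food themselves, and the paper reports trypsin or chymotrypsin as raised on cyanobacterial diets. The sum of the 36 genes here was lower in CY (9694 ± 2696 CPM) and CY+EPA (7512 ± 2983 CPM) than in GA (14019 ± 580 CPM), without overlap. Division by a lower sum gives higher values. The sum of these enzymes is thus not a measure of the amount of gut alone, and this was not tested. Per 1000 CPM of the 36 gut enzyme genes, KZS04512.1 was at 15.7 to 20.1 CPM in GA, 5.18 to 16.1 CPM in GA+EPA, 1.88 to 4.44 CPM in CY, 3.19 to 4.40 CPM in CY+EPA and 3.13 to 4.27 CPM in CRY. On the same measure KZS04513.1 was at 1.02 to 1.11 CPM in GA, 5.88 to 7.21 CPM in CY and 7.10 to 8.33 CPM in CRY. With EPA it was at 0.632 to 0.963 CPM in GA+EPA and 3.20 to 5.33 CPM in CY+EPA. KZS07195.1 was at 0.897 to 1.22 CPM in GA, 5.50 to 9.36 CPM in CY and 9.23 to 10.2 CPM in CRY. With EPA it was at 0.598 to 0.659 CPM in GA+EPA and 3.87 to 5.71 CPM in CY+EPA. The CY and CRY pools did not overlap with the GA pools for any of the 3 genes after this division. GA+EPA lay below GA for KZS04513.1 and KZS07195.1 and overlapped with it for KZS04512.1. CY+EPA lay below CY for KZS04513.1 and overlapped with it for KZS04512.1 and KZS07195.1. These differences with EPA were not tested.

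**Figure D4:**
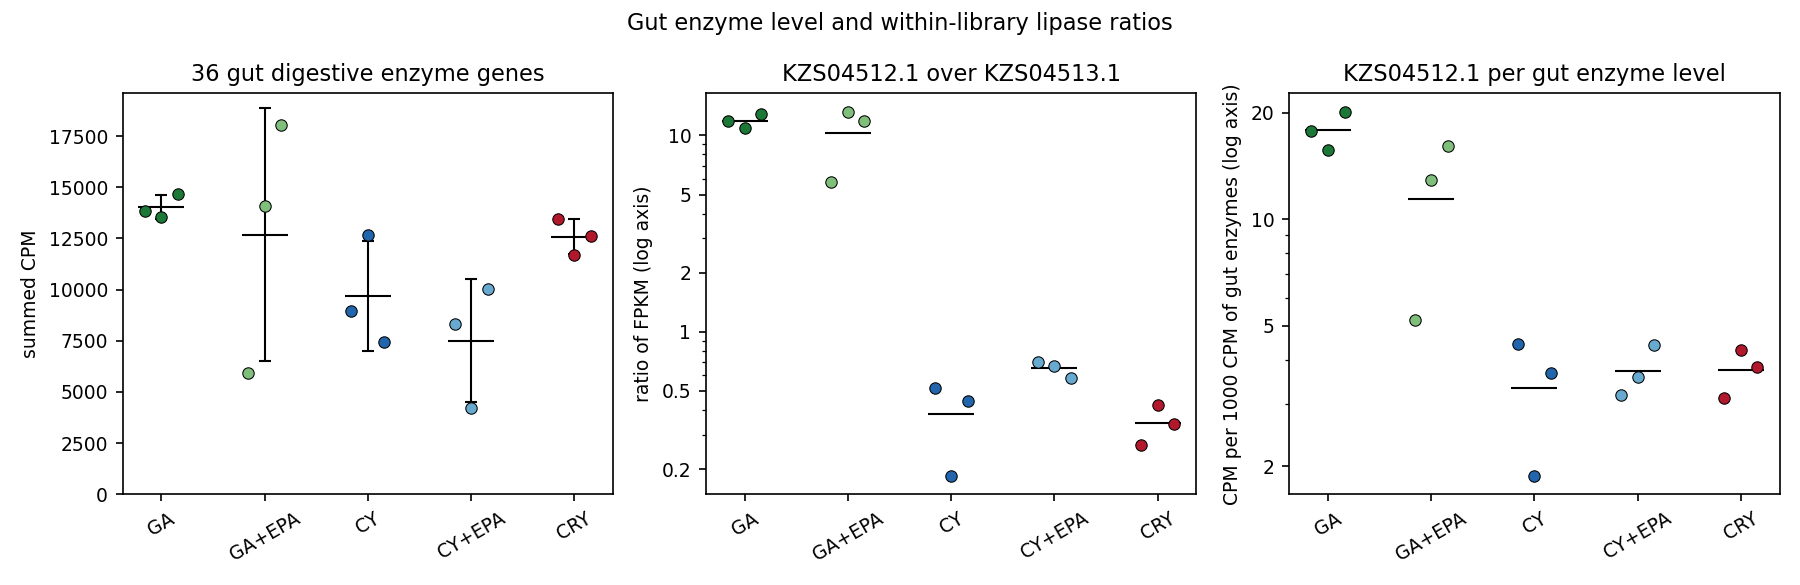
Per library and diet, the left panel shows the summed CPM of 36 gut digestive enzyme genes (dash and bars: mean ± SD of 3), the middle panel the FPKM of KZS04512.1 over that of KZS04513.1, and the right panel the CPM of KZS04512.1 per 1000 CPM of the gut enzymes (log axes, dash: mean). Every GA pool has a higher sum of gut enzymes than every CY, CY+EPA and CRY pool, whereas the range of GA+EPA overlaps with the other diets. The lowest sums are in 1 GA+EPA and 1 CY+EPA pool (5938 and 4211 CPM). All ratios in GA and GA+EPA lie above those of CY, CY+EPA and CRY.

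Further secreted lipases were called in CRY against GA. The lipase KZS16458.1 rose from 14.9, 15.5 and 15.2 CPM in GA to 32.0, 56.5 and 31.5 CPM in CRY, by 1.40 on the log2 scale (SE 0.22, adjusted p = 0.00202). In CY it was at 37.9, 15.2 and 19.0 CPM, and the high value came from replicate 1 alone. Its neighbour in the annotation, KZS16459.1, was at 1.61 ± 0.313 CPM in GA and 1.95 ± 0.447 CPM in CRY. KZS16468.1, a putative lipase 3 on the same scaffold, rose by 1.76 (SE 0.35, adjusted p = 0.00677), but from a level of 0.282 ± 0.0917 CPM to only 0.979 ± 0.157 CPM. The putative lipase 3 KZS08948.1 fell from 2.89, 2.92 and 3.73 CPM in GA to 1.48, 0.525 and 1.14 CPM in CRY (log2 fold change -1.60, SE 0.33, adjusted p = 0.00832). The calls of KZS16458.1, KZS16468.1 and KZS08948.1 were lost in 4, 9 and 4 of 12 settings, and that of KZS04449.1 in 3.

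Of the 8 members grouped by name as lipases of intracellular glycerides, 1 passed the test in edgeR. KZS03406.1, which was grouped with the phospholipases, is described below. Monoglyceride lipase (KZS14489.1), which releases the last fatty acid from the glycerol backbone, was at 31.9, 37.5 and 34.1 CPM in GA and at 44.9, 47.7 and 50.2 CPM in CRY. Every CRY pool was higher, and the increase was 0.47 on the log2 scale (SE 0.08, adjusted p = 0.00263), with the call lost in 4 of 12 settings. In CY it stood at 36.3, 36.6 and 28.7 CPM and overlapped with GA. Monoacylglycerol lipase ABHD12 (KZS17588.1) was called in CRY against GA by DESeq2 (log2 value -0.44, adjusted p = 0.00286) and not by edgeR (adjusted p = 0.0116). It was at 32.5, 29.0 and 37.4 CPM in GA and 22.9, 24.0 and 25.4 CPM in CRY, without overlap. Hormone-sensitive lipase (KZS20711.1), which in mammals cleaves diacylglycerol in fat cells, was at 29.6, 25.7 and 28.1 CPM in GA, 39.7, 38.1 and 35.2 CPM in GA+EPA, 29.6, 47.5 and 37.5 CPM in CY, 31.1, 44.5 and 34.6 CPM in CY+EPA and 28.2, 28.6 and 31.0 CPM in CRY. The GA+EPA pools lay above all GA pools, but no comparison of this gene passed the threshold in either tool. Sn1-specific diacylglycerol lipase beta (KZS16849.1) had means between 14.5 ± 0.0973 CPM in GA and 19.2 ± 3.48 CPM in CRY. Lipase maturation factor 2 (KZS12032.1), a relative of a mammalian protein that helps secreted lipases to fold, was nearly level across the diets, with 57.0 ± 1.08 CPM in GA and 52.3 ± 2.28 CPM in GA+EPA.

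KZS03406.1 carries the name patatin phospholipase domain-containing protein 2, which in mammals is adipose triglyceride lipase, the enzyme that starts the breakdown of stored fat. By its name it was counted with the phospholipases. It was at 52.0, 54.8 and 61.0 CPM in GA, 45.4, 44.1 and 41.0 CPM in GA+EPA, 30.6, 24.9 and 30.7 CPM in CY, 29.2, 25.0 and 31.1 CPM in CY+EPA and 30.9, 31.6 and 32.5 CPM in CRY. The GA pools were the highest, GA+EPA came next without overlap, and the 3 remaining diets overlapped. It fell by 0.99 on the log2 scale in CY (SE 0.11, adjusted p = 0.00274) and by 0.82 in CRY (SE 0.07, adjusted p = 0.000102). The call in CRY held in all 12 settings, and that in CY was lost in 4 with an adjusted p of up to 0.018.

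The other phospholipases that fell act in signalling. Phosphoinositide phospholipase C, which splits phosphatidylinositol bisphosphate into diacylglycerol and inositol trisphosphate and of which 1 form acts in the photoreceptors of *Drosophila*, was represented by several genes. KZS10668.1 was at 66.9, 73.7 and 66.6 CPM in GA, 29.8, 36.6 and 32.9 CPM in CY and 40.4, 41.1 and 41.4 CPM in CRY. All pools of CY and CRY were below all GA pools. It fell by 1.09 in CY (SE 0.10, adjusted p = 0.00109) and by 0.75 in CRY (SE 0.06, adjusted p = 6.62e-05) on the log2 scale, and the call in CY was lost without GA replicate 1 or 3. Part of its reads was divided with other genes, and it overlaps KZS10669.1 on the other strand by 183 bp. The opsin genes summed to lower levels in the same diets, and their part in this result was not tested.

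A second gene of this name, KZS12870.1, was at 50.0, 51.4 and 49.3 CPM in GA, 37.9, 33.2 and 31.3 CPM in CY and 38.0, 39.1 and 42.5 CPM in CRY, again without overlap with GA. Its decrease was smaller, with log2 values of -0.59 (SE 0.09, adjusted p = 0.00735) and -0.33 (SE 0.06, adjusted p = 0.00431), and each call was lost in 7 of 12 settings. Phospholipase D1 (KZS04607.1), which makes phosphatidate from phosphatidylcholine, was at 23.3, 24.5 and 23.9 CPM in GA, 11.5, 14.6 and 8.90 CPM in CY and 13.4, 16.5 and 13.5 CPM in CRY. It fell by 1.06 (SE 0.17, adjusted p = 0.00863) and by 0.72 (SE 0.10, adjusted p = 0.00124) on the log2 scale, and the calls in CY and CRY were lost in 8 and 1 of 12 settings. Among the phospholipases with the highest levels, ABHD3 (KZS08750.1) had means between 77.1 ± 8.70 CPM in CY+EPA and 90.6 ± 6.04 CPM in GA and was not called in any comparison. The phospholipase A-2-activating protein KZS12976.1 had means between 107 ± 3.22 CPM in GA and 125 ± 3.70 CPM in CY+EPA and was likewise not called.

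**Figure D5:**
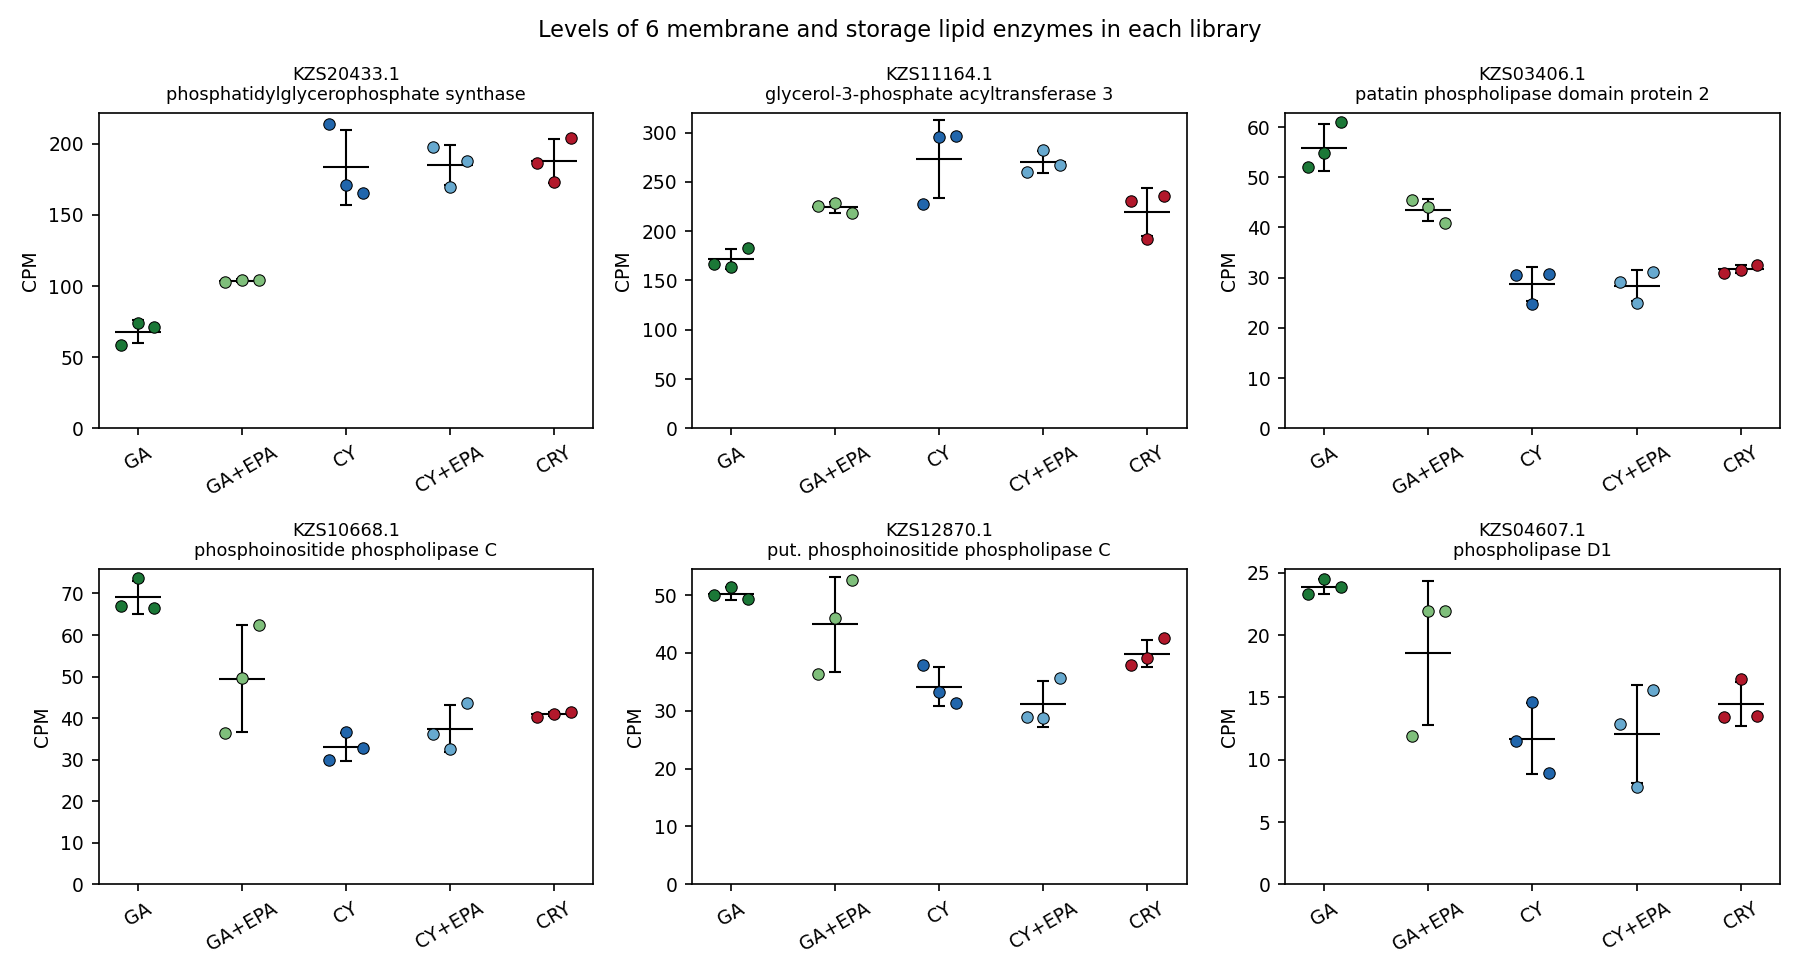
CPM of 6 membrane and storage lipid enzymes in each library by diet (y axes start at 0, points are libraries, dash and bars give mean ± SD of 3). KZS20433.1 rose from 67.8 CPM in GA to 184 CPM in CY and 188 CPM in CRY, KZS11164.1 had its lowest pools in GA, and the phospholipases KZS03406.1, KZS10668.1, KZS12870.1 and KZS04607.1 had their highest means in GA.

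The steps from glycerol-3-phosphate to diacylglycerol showed small differences. Glycerol-3-phosphate acyltransferase 3 (KZS11164.1, LRGB01001581.1, 817543 to 819678), the first committed step of the pathway, was at 167, 164 and 183 CPM in GA, 226, 229 and 218 CPM in GA+EPA, 227, 295 and 296 CPM in CY, 260.3, 282 and 268 CPM in CY+EPA and 231, 192 and 236 CPM in CRY. Every pool of the other diets was above the GA pools. In edgeR's pairwise tests it missed the threshold, with log2 values of 0.64 in CY against GA (SE 0.12, adjusted p = 0.0158) and 0.39 in GA+EPA against GA (SE 0.08, adjusted p = 0.105). DESeq2 called it in CY (adjusted p = 6.17e-05), CRY (adjusted p = 0.00104) and GA+EPA (adjusted p = 0.00421), each against GA. In edgeR's test over all 5 diets it was called (adjusted p = 0.00433). The second gene of this name, KZS17104.1, was at 10.5 ± 1.86 CPM in GA and 12.8 ± 0.666 CPM in CY+EPA and was called by neither tool.

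The enzymes that add the second fatty acid and those that follow were close to level. 1-acyl-sn-glycerol-3-phosphate acyltransferase delta (KZS20781.1) had means between 146 ± 3.61 CPM in CRY and 166 ± 7.47 CPM in CY+EPA. Lysophosphatidylcholine acyltransferase (KZS09961.1), which remodels membrane phospholipids, ranged between 54.3 ± 2.01 CPM in GA and 61.6 ± 8.31 CPM in GA+EPA. The lipin LPIN1 (KZS18674.1) was at 102 ± 4.86 CPM in GA, 116 ± 8.63 CPM in GA+EPA, 115 ± 3.60 CPM in CY, 111 ± 2.95 CPM in CY+EPA and 98.9 ± 8.22 CPM in CRY. The phosphatidate phosphatase PPAPDC1A (KZS16817.1) was at 26.8 ± 1.56 CPM in GA and 33.1 ± 1.78 CPM in CRY, and the CDP-diacylglycerol synthase KZS07573.1, which activates phosphatidate, lay between 9.95 ± 0.565 and 10.8 ± 0.449 CPM. Over the 8 acyltransferases the highest diet mean was between 1.14 and 1.59 times the lowest, and over the 5 phosphatidate enzymes between 1.09 and 1.48 times.

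The most regular response among the synthetic enzymes was that of KZS20433.1 (LRGB01000190.1, 140650 to 142422, minus strand). Its name, CDP-diacylglycerol--glycerol-3-phosphate 3-phosphatidyltransferase, is that of phosphatidylglycerophosphate synthase, which makes the precursor of cardiolipin in mitochondria. It was at 58.6, 73.7 and 71.2 CPM in GA, 103, 104 and 104 CPM in GA+EPA, 214, 171 and 165 CPM in CY, 198, 169.8 and 188 CPM in CY+EPA and 186, 173 and 204 CPM in CRY. The GA pools were lowest, GA+EPA lay above them without overlap, and CY, CY+EPA and CRY overlapped with each other above both. It rose by 1.41 on the log2 scale in CY against GA (SE 0.14, adjusted p = 0.00165) and by 1.47 in CRY against GA (SE 0.10, adjusted p = 3.33e-05). In CRY the call held in all 12 settings, and in CY it was lost in 4. It had the smallest adjusted p of all members over the 5 diets (2.1e-05).

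The related transferases that make phosphatidylinositol did not follow it. KZS10919.1 had means between 19.0 ± 1.86 CPM in CY+EPA and 23.1 ± 1.82 CPM in GA+EPA. KZS21212.1, which overlaps a gene on the other strand by 965 bp, had means between 7.78 ± 0.547 CPM in CY+EPA and 11.0 ± 0.862 CPM in CRY. Neither was called in any comparison.

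No diacylglycerol kinase was called in a pairwise comparison by edgeR or DESeq2. These kinases turn the messenger diacylglycerol back into phosphatidate. The most abundant, KZS04014.1, was at 24.7, 26.5 and 31.2 CPM in GA and 21.1, 19.7 and 18.5 CPM in CY without overlap (log2 fold change -0.50, adjusted p = 0.0295). KZS15871.1 and KZS18218.1 had log2 values of -0.46 (adjusted p = 0.034) and -0.36 (adjusted p = 0.0348) in the same comparison. Diacylglycerol kinase eta (KZS14512.1) was at 17.9 ± 2.74 CPM in GA, 26.2 ± 2.56 CPM in GA+EPA, 25.9 ± 3.81 CPM in CY, 24.2 ± 5.76 CPM in CY+EPA and 17.6 ± 0.187 CPM in CRY. Over 5 diets edgeR called KZS18218.1 (adjusted p = 0.00746), with means between 19.0 ± 0.856 CPM in CY+EPA and 25.2 ± 1.05 CPM in GA.

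Of the lysophospholipid genes, the receptor named lysophosphatidic acid receptor 3 (KZS19551.1), a G protein-coupled receptor in mammals, rose from 38.9, 44.1 and 34.7 CPM in GA to 56.3, 60.6 and 52.0 CPM in CRY, by 0.53 on the log2 scale (SE 0.10, adjusted p = 0.00449), with the call lost in 5 of 12 settings. In CY it varied from 25.1 to 60.4 CPM. The phosphatase KZS10148.1 had means between 261 ± 6.01 CPM in GA and 336 ± 33.1 CPM in CY+EPA. edgeR called it in no comparison, whereas DESeq2 called it over the 5 diets (adjusted p = 0.004, and 0.0497 in edgeR).

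The food contrast was also measured in libraries with EPA, which shared none with CY against GA. In CY+EPA against GA+EPA edgeR called 0 of 84 members, beside 0.147% of all tested genes. Before adjustment, a p of at most 0.05 was found for 21 members (25%), beside 20.8% of the genes tested, and DESeq2 called 3 of 85 (3.53%), beside 3.75%. Those 3 were KZS07195.1, KZS20433.1 and KZS03406.1. The smallest adjusted p in edgeR was 0.0146, for KZS20433.1, with a log2 value of 0.83 (SE 0.08). KZS03406.1 had a value of -0.62 (SE 0.10, adjusted p = 0.0504), KZS21212.1 of -0.44 (SE 0.11, adjusted p = 0.103) and KZS07195.1 of 2.13 (SE 0.56, adjusted p = 0.115).

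All 8 members called in CY against GA had the same sign in this second contrast. The share over all genes called in CY against GA is not given here, so the 8 cannot be set against other called genes. Over the members tested in both, 57 of 83 (68.7%) had the same sign, beside 9496 of 14035 genes (67.7%), so that the members as a whole were like other genes in this. KZS04512.1 was at 30.8, 182 and 289.9 CPM in GA+EPA and 26.5, 15.1 and 44.1 CPM in CY+EPA, and GA+EPA replicate 1 lay within the CY+EPA range. Its log2 value was -2.56 (SE 0.81, adjusted p = 0.157), and -3.08 (adjusted p = 0.0405) without that pool. KZS04513.1 was at 3.75, 9.74 and 17.3 CPM in GA+EPA and 26.6, 16.0 and 53.4 CPM in CY+EPA, with a log2 value of 1.63 (SE 0.64, adjusted p = 0.219), and 1.21 without that pool. KZS07195.1 was at 3.85, 8.43 and 11.9 CPM in GA+EPA and 32.2, 17.0 and 57.2 CPM in CY+EPA, without overlap. The lowest values of these 3 genes in either diet were those of GA+EPA replicate 1 and CY+EPA replicate 2, the pools with the lowest sums of gut enzymes.

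With edgeR no member passed the threshold for supplementation with EPA on either food. In GA+EPA against GA edgeR called 0 of 86 members, beside 0% of all tested genes. Before adjustment, a p of at most 0.05 was found for 16 members (18.6%), beside 18.4% of the genes tested, and DESeq2 called 4 of 92 (4.35%), beside 2.09%. Those 4 were KZS11164.1, KZS20433.1, KZS16891.1 and the pancreatic lipase-related gene KZS04450.1. KZS20433.1 had a log2 value of 0.62 (SE 0.10, adjusted p = 0.102 in edgeR) and hormone-sensitive lipase KZS20711.1 of 0.44 (SE 0.08, adjusted p = 0.105). The phospholipase B 2-like gene KZS16891.1, one of a family of lysosomal proteins, was at 196, 189 and 238 CPM in GA and 289.8, 329 and 297 CPM in GA+EPA, without overlap (log2 value 0.56, SE 0.12, adjusted p = 0.105). KZS04450.1 was at 22.3, 29.1 and 21.3 CPM in GA and 12.7, 8.71 and 14.8 CPM in GA+EPA, also without overlap. The sum of yolk genes was higher in every GA+EPA pool than in any GA pool, and its part in these values was not tested.

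KZS04512.1 had a log2 value of -0.57 (SE 0.69) in GA+EPA against GA, which rested on GA+EPA replicate 1, and was -0.08 without it. The SE shows that with 3 pools a difference of this gene by EPA was not detectable unless it was large.

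The effect of EPA on the cyanobacterial diet was measured in CY+EPA and CY. In CY+EPA against CY edgeR called 0 of 84 members, beside 0% of all tested genes. Before adjustment, a p of at most 0.05 was found for 3 members (3.57%), beside 1.93%, and DESeq2 called 0 of 94, beside 0.0138%. The 3 members were a phosphoinositide phospholipase C, KZS14804.1 (log2 value -0.26, SE 0.10), the lipase-like gene KZS21232.1 (-1.42, SE 0.56) and gastric triacylglycerol lipase KZS17525.1 (0.97, SE 0.38), each with an adjusted p of 1. KZS14804.1 was at 20.6, 20.6 and 22.3 CPM in CY and 16.4, 19.0 and 17.8 CPM in CY+EPA, and the other 2 were near or below 1 CPM in most pools. The lipases KZS07195.1 and KZS04513.1, which had risen in CY against GA, had log2 values of -1.03 (SE 0.48) and -0.98 (SE 0.48), each with an adjusted p of 1. KZS07195.1 was at 84.0, 91.9 and 40.9 CPM in CY and 32.2, 17.0 and 57.2 CPM in CY+EPA, and KZS04513.1 at 54.2, 91.4 and 43.7 CPM in CY and 26.6, 16.0 and 53.4 CPM in CY+EPA. In CPM the groups overlapped for both genes, and at this spread a difference of this size was not detectable. Per gut enzyme level, the CY+EPA pools of KZS04513.1 lay below the CY pools, which was not tested. KZS20433.1 was at 184 ± 26.5 CPM in CY and 185 ± 14.1 CPM in CY+EPA.

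The effects of EPA on the 2 foods were compared by the interaction in 12 libraries. edgeR called 0 of 87 members, beside 0% of all tested genes. Before adjustment, a p of at most 0.05 was found for 9 members (10.3%), beside 10.8%, and DESeq2 called 0 of 78, beside 0.331%. The members with the smallest p were KZS20433.1 with a difference of 0.59 on the log2 scale (effect on GA less that on CY, SE 0.17, adjusted p = 0.309), KZS16891.1 with 0.46 (SE 0.16, adjusted p = 0.35) and the diacylglycerol kinase KZS04014.1 with -0.45 (SE 0.16, adjusted p = 0.361).

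CRY and CY, the foods that both differed from GA, were also set against each other. edgeR called 0 of 84 members, beside 0% of all tested genes. Before adjustment, a p of at most 0.05 was found for 10 members (11.9%), beside 15.6%, and DESeq2 called 0 of 59, beside 1.52%. The smallest p belonged to monoglyceride lipase KZS14489.1 (log2 value 0.50, SE 0.12, adjusted p = 0.247), diacylglycerol kinase eta KZS14512.1 (-0.54, SE 0.13, adjusted p = 0.25) and phospholipase C KZS10668.1 (0.32, SE 0.09, adjusted p = 0.271).

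Over all 5 diets at once, 11 of 87 members (12.6%) were called by edgeR, beside 8.12% of all tested genes. They were the secreted lipases KZS04512.1 (adjusted p = 0.00392), KZS04513.1 (0.00243), KZS07195.1 (0.000471), KZS04449.1 (0.00362) and KZS16468.1 (0.00809), the phospholipases KZS03406.1 (0.000106), KZS10668.1 (0.00312) and KZS12870.1 (0.00915), and the enzymes KZS20433.1, KZS11164.1 and KZS18218.1 described above. Leaving out single libraries moved this count to between 4 and 15, with 5, 4 and 6 without GA replicates 1, 2 and 3. It was 6 without CY+EPA replicate 1 or CRY replicate 1, and 7 without GA+EPA replicate 2, CY+EPA replicate 2 or CRY replicate 2. The counts over all genes without these libraries are not given here.

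Other genes that handle the products of lipases were counted by their names, from edgeR's calls. The shares over the whole table were 1.27% higher and 4.72% lower in CY against GA, and 6.62% higher and 9.59% lower in CRY against GA. In CY against GA 3 of 20 tested genes of fatty acid activation and transport were higher and 1 was lower, and in CRY against GA 3 were higher and 3 lower. The 3 were the same long-chain-fatty-acid--CoA ligases, which activate fatty acids for esterification: KZS01729.1 was at 105 ± 10.6 CPM in GA, 288 ± 53.8 CPM in CY and 201 ± 18.8 CPM in CRY, and KZS01728.1 and KZS19371.1 rose with it. Of 14 tested carboxylesterases, 3 were higher and 1 lower in CY, and 6 were higher and 3 lower in CRY. Among these KZS07851.1 rose from 28.3 ± 1.14 CPM in GA to 95.9 ± 17.7 CPM in CY and 159 ± 22.8 CPM in CRY, and KZS04986.1 fell from 128 ± 9.26 CPM to 23.5 ± 4.98 and 41.7 ± 5.86 CPM. Of 9 phospholipases A2, 1 was higher and 1 lower in CY, and 1 was higher and 3 lower in CRY. The large subunit of microsomal triglyceride transfer protein (KZS04667.1), which loads lipid onto lipoproteins, rose from 182 ± 3.61 CPM in GA to 326 ± 19.8 CPM in CY and 263 ± 10.3 CPM in CRY, and a surface protein of lipid droplets (KZS09612.1) fell from 340 ± 2.14 to 235 ± 21.1 CPM in CRY. One of 2 fatty acid-binding genes rose in CY and none in CRY. None of the 7 tested glycerol kinases and glycerol-3-phosphate dehydrogenases was called in either comparison, and of 3 choline and ethanolamine phosphotransferases 1 fell in CRY.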

How the data were processed

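The data are 15 RNA-seq libraries of whole *D. magna* at 15 °C, 3 pools for each of 5 diets, grouped by the labels. Reads were trimmed with Trimmomatic, mapped against the v2.4 reference of *D. magna* by bowtie2 and quantified with RSEM 1.2.31. The expected counts that the authors deposited are estimates of read pairs per gene without normalisation, and are not whole where reads were divided between genes. FPKM values, also deposited by the authors, are scaled to gene length and library total. Deposited TPM values were not used. Whether counting used strand is not given in the sources used here, so reads of genes that overlap on opposite strands may not be separated.

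After rounding, the expected counts entered edgeR 4.0.16 (R 4.3.3, filterByExpr, TMM, glmQLFit, glmQLFTest) on the libraries of the groups compared, over all genes, with Benjamini-Hochberg adjustment and a call at an adjusted p of at most 0.01. No test of groups of genes was made. CPM values were computed over TMM-scaled library sizes of all 15 libraries. The biological coefficient of variation, a common value over genes, was between 0.136 and 0.236, so that for genes with many counts the spread between pools sets the precision. For members of low level, such as KZS16468.1 with 232 counts over the 15 libraries, counting noise adds to it. Among genes with many counts, no replicate pair agreed within counting noise. Scripts were tested on simulated data.

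The members and lists were chosen with earlier results of these data known. Named are called members, up to the 8 with the largest change per comparison at a mean of at least 1 CPM, the 3 with the smallest p where fewer than 3 were called, the 3 with the highest FPKM in each role, the acyltransferases the study names, and members called over 5 diets whose diet means differed at least 4-fold. The genes next to them on a scaffold, those called by DESeq2 only, those called only over the 5 diets and the diacylglycerol kinases close to the threshold were added after their values were seen. The results were computed again with DESeq2 1.42.0, with RLE size factors, without the filter on low counts, in 1 fit of all 15 libraries, with a block for the replicate number, at a threshold of 0.05, without each library, and with library totals without TMM scaling (added after seeing the data). No identifier matched the reference table, so that names are those of the authors' annotation and no sequences are shown.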

Additional observations from a re-analysis of the deposited data

How the results depend on the processing

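For the members followed through the alternatives no direction reversed: 455 values kept their side of the threshold, 72 lost a call and 7 gained one. In GA+EPA against GA DESeq2 called 4 members in place of 0. In CY against GA the count was 18 of 85 at a threshold of 0.05, beside 2059 of 14264 genes. It was 2 with the replicate number as a block, and 1 to 10 with a library left out. In CY+EPA against GA+EPA the count was 1 of 84 at 0.05, beside 219 of 14289 genes. It was 3 with DESeq2 and 2 with all 15 libraries in 1 fit, and 0 throughout when a library was left out. In CRY against GA it was 25 of 87 at 0.05, beside 4314 of 14303 genes. It was 8 with all 15 libraries in 1 fit and 7 to 14 with a library left out. Over 5 diets it was 27 of 87 at 0.05, beside 3597 of 14981 genes. It was 24 with DESeq2, 7 with the replicate block, 18 without TMM scaling and 4 to 15 with a library left out. The counts of CY+EPA against CY, of the difference between the EPA effects and of CRY against CY stayed at 0 in all settings run. Calls over all genes moved in some of these settings. In CY against GA they went from 854 to 173 with the replicate block, and in CRY against GA from 2319 to 851 in 1 fit of all libraries. With DESeq2 they went from 21 to 530 in CY+EPA against GA+EPA and from 1216 to 3571 over 5 diets. Those with a library left out or without TMM scaling are not given here. The cause of the shifts was not tested, except that leaving out a library leaves fewer samples. Pools of the same number did not deviate together throughout (0 to 3 of the 6 libraries of a comparison were closest to the pool of their own number, correlations of their deviations -0.24 to 0.48, with no comparison in which all 3 pairs were above 0.1). No regular pairing by number was thus seen, but deviations from a mean of 3 pools cannot exclude one.

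With 3 pools a group, small differences of lipases of low level were not detectable: 8 members were too low to be fitted, and exact permutation of 3 against 3 cannot go below 0.1. Whole animals with eggs were sampled, so that the tissue of origin of each transcript is not known. The foods differ in more than EPA, and the labelled replicates are pools of 1 clone.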

Other observations

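The lipase KZS21050.1 was at 2.30, 2.41 and 5.45 CPM in CRY, 1.44, 1.01 and 0.933 CPM in GA and 2.34, 0.173 and 0.268 CPM in CY. Every CRY pool was above every GA pool, whereas in CY 1 pool lay above the GA pools and the others below. Its adjusted p was 0.017 in edgeR and 0.00109 in DESeq2 in CRY against GA, and it was noted after its values had been seen.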
